A study of Mus musculus with 2 samples.

Results

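Accessible chromatin in and around the genes of the IgLON and CSMD families was described in the adult mouse hippocampus. The set held 8 of 21851 protein-coding genes, 5 IgLONs (Lsamp, Opcml, Ntm, Negr1 and Iglon5) and 3 CSMDs (Csmd1, Csmd2 and Csmd3). They were chosen by family name, after peak counts of these same data had placed Lsamp and Csmd1 among the genes with the most distal peaks, so peak number, height and footprints are given as descriptions with no test. Each gene was read over its GENCODE M21 body plus 10 kb to each side in the mm10 build, 8.67 Mb in all. Replicate 1 had 489 of its 144270 peaks in these windows, and replicate 2 had 414 of its 124426. The series was DNase-seq of 1 group with 2 biological replicates. Each replicate was a pool of 2 biosamples from male B6CASTF1/J mice aged 8 to 10 months, an F1 cross of C57BL/6J with CAST/EiJ. Both pools carry the same donor label, and the sources used here do not say whether they share animals. The label of the tissue was layer of hippocampus, with no layer named. There was no second condition, so only the replicates and other genes could be set beside these values.

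The enzyme DNase I cuts open chromatin, so its cuts pile up in peaks at active promoters and at elements far from them. Within a peak, a bound protein leaves a short gap in the cuts, called a footprint. IgLONs are small adhesion molecules of neurons with immunoglobulin domains, held in the membrane by a GPI anchor, and they bind each other on neighbouring cells to guide neurite outgrowth and synapse formation. CSMDs are very large membrane proteins built from CUB and sushi domains, which are also found in regulators of complement, and Csmd1 is known as an inhibitor of complement in the brain. Most genes of both families are very long, with introns that hold nearly all of their sequence.

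The sequences below are the tallest distal sites of 4 members and the promoters that the heights turned on. A distal site here is a peak that touched no window of 1000 bp to each side of a coding start site. Bases in capitals lay inside footprints of both replicates. The distal sites are given on the plus strand, over the stretch common to the peaks of both replicates and at most 300 bases. They lie in an intron of Lsamp (chr16:40968201-40968380), in an intron of Csmd1 (chr8:17465561-17465680), in an intron of Ntm (chr9:29954141-29954360) and in an intron of Opcml (chr9:28822181-28822400). Sequence is that of the C57BL/6J reference, and differences of the CAST/EiJ allele were not analysed here.
Lsamp distal site: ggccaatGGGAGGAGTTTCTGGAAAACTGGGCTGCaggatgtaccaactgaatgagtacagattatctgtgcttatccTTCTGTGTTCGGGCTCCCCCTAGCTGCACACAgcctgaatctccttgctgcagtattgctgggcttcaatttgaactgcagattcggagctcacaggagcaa
Csmd1 distal site: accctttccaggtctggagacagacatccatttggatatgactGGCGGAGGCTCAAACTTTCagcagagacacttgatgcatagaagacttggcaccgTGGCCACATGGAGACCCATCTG
Ntm distal site: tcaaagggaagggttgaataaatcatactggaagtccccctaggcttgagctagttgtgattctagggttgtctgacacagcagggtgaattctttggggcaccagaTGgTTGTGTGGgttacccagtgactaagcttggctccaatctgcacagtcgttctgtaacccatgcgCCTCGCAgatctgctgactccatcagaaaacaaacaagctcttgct
Opcml distal site: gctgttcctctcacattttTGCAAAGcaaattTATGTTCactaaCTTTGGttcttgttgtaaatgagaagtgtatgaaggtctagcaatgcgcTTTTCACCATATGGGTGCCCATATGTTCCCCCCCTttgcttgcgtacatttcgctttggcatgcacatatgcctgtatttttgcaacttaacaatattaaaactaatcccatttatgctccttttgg

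The promoter sequences are credited to RefSeq (GRCm38.p6), whose table matched 5 of the 8 symbols. They run up to the base before the RefSeq start site, on the strand of the gene. Lsamp promoter 1 is the exception and stops at the base before the GENCODE gene start, with 247 bases in place of 250. They are shown because Lsamp has a tall and a low promoter, Negr1 the tallest mean height, and Iglon5 is the compact member. Lsamp promoter 1 is its far 5′ start (chr16:39984114-39984360, plus strand) and Lsamp promoter 2 the inner start (chr16:41532576-41532825, plus strand). The Negr1 promoter is at chr3:156561544-156561793 on the plus strand and that of Iglon5 at chr7:43490212-43490461 on the minus strand. Lsamp promoter 2 has no capitals, because replicate 2 had 0 footprints overlapping this stretch, while replicate 1 had 2.
Lsamp promoter 1: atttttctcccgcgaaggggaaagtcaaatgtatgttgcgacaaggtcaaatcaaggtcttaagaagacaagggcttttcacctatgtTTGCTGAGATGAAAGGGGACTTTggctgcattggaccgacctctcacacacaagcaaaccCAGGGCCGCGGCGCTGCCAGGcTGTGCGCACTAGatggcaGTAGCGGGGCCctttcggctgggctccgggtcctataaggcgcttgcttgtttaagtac
Lsamp promoter 2: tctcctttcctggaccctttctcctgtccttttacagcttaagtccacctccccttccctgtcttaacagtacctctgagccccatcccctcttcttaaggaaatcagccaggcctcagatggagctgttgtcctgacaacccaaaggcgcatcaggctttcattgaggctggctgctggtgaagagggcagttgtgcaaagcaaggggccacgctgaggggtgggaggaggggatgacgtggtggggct
Negr1 promoter 1: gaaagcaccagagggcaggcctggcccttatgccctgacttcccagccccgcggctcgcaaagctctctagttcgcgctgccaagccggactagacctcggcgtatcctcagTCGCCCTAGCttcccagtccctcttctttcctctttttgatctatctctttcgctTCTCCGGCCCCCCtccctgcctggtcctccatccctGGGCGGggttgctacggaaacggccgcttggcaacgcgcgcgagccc
Iglon5 promoter 1: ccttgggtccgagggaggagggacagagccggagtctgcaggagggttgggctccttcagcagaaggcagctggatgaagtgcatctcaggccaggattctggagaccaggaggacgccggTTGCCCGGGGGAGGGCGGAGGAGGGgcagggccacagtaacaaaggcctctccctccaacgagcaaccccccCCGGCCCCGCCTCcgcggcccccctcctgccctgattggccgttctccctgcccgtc

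Both replicates had a promoter peak at all 8 members, within 1000 bp of a coding start site. Over all coding genes the share was 62.6% (13679 of 21851). Most coding genes of 500 kb or more, the class of 7 of the 8, also had one in both replicates. An open promoter was thus not particular to the members. Annotated start sites of a gene more than 500 bp apart were kept separate, which gave 11 start sites, and each of the 11 had a peak in both replicates. The height of a peak is the authors' value, whose scale is not stated, and the tallest peak at a start site stands for it. Over coding genes open in both, the median promoter height was 3.59 in replicate 1 and 2.89 in replicate 2. Only Lsamp and Negr1 lay above that median in both replicates, and Csmd3 did so in replicate 2 alone. The tissue is a mixture of cell types, in which a high peak in few cells and a low peak in many cannot be told apart.

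Lsamp, the limbic system-associated membrane protein, spans 2197 kb of chromosome 16 and is the longest of the 8. Its far 5′ start (Lsamp-206) had a height of 4.23 in replicate 1 and 3.96 in replicate 2 (4.10 ± 0.185, SD, n = 2). The inner start, 1548.5 kb further in and used by Lsamp-201 and Lsamp-202, had 1.42 and 1.24 (1.33 ± 0.130). The far start was the higher in both replicates, with no overlap. Its CpG observed/expected ratio, taken over 500 bp to each side, was 0.614, against 0.340 at the inner start. In the printed sequences the far promoter holds AGGTCA, the letters of a ROR site, as do 14.02% of all 32851 RefSeq promoter windows of 250 bp. The inner promoter holds CATCTG, an E-box, as do 14.4% of these windows.

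Opcml, the opioid-binding cell adhesion molecule, and Ntm, neurotrimin, are neighbours on chromosome 9 with their 3′ ends 69.3 kb apart, and each has a far and an inner start. At Opcml the far start had heights of 1.98 and 1.88 (1.93 ± 0.0728), and the inner start, 613.0 kb in, 2.26 and 1.85 (2.06 ± 0.291). At Ntm they were 1.35 and 1.28 at the far start (1.32 ± 0.0519) and 1.35 and 1.10 at the inner one, 551 kb in (1.22 ± 0.171). The ranges of the far and the inner start overlapped in both genes, unlike in Lsamp. Within each replicate the far start of Ntm was the higher, by little in replicate 1 (1.352 against 1.345). In Opcml the order changed between the replicates. In these genes the inner starts were the richer in CpG, with ratios of 0.727 against 0.342 in Opcml and 0.796 against 0.465 in Ntm. At both inner starts the tallest peak lay downstream, centred 604 and 614 bp past the start in Opcml and 623 and 613 bp past it in Ntm. In replicate 2 of Ntm a peak over the start was equally tall (1.10).

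Negr1, neuronal growth regulator 1, had the highest mean of the 11 start sites, with 4.75 in replicate 1 and 3.62 in replicate 2 (4.18 ± 0.803). Its replicates were also the farthest apart. The tallest of its peaks was centred 863 and 873 bp upstream of the start and held 10 and 12 footprints. The peak on the start site itself, over the printed sequence, had 3.18 and 2.20 with 5 and 4 footprints. A noncoding gene, 4930570G19Rik, is annotated on the opposite strand with its start 48 bp before that of Negr1, so the upstream peak lies in its body as well. The printed Negr1 promoter holds GGGCGG, an SP/KLF site (32.7% of RefSeq windows), GTTGCCA, part of an RFX site (3.66%), and TTGGCA, part of an NFI site (12.3%), counting both strands. Iglon5, the antigen of the autoimmune sleep and movement disorder anti-IgLON5 disease, had 1.798 and 1.34 (1.57 ± 0.322) at its single start, centred 256 bp upstream in both replicates.

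The CSMD genes each have 1 start site in these models. Csmd1 had heights of 1.96 and 1.63 (1.79 ± 0.232), and Csmd2, a synaptic member of the family, 1.57 and 1.39 (1.48 ± 0.127). Csmd3, which acts in dendrite development, had 2.99 and 3.62 (3.30 ± 0.445). It was the single start site of the 11 that was higher in replicate 2. Its tallest peak was centred 858 bp upstream in both replicates, and a second peak on the start had 1.73 and 1.63. Csmd3 thus had the tallest start site peak among the CSMDs in both replicates, although its body was the poorest in distal peaks.

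**Figure D1:**
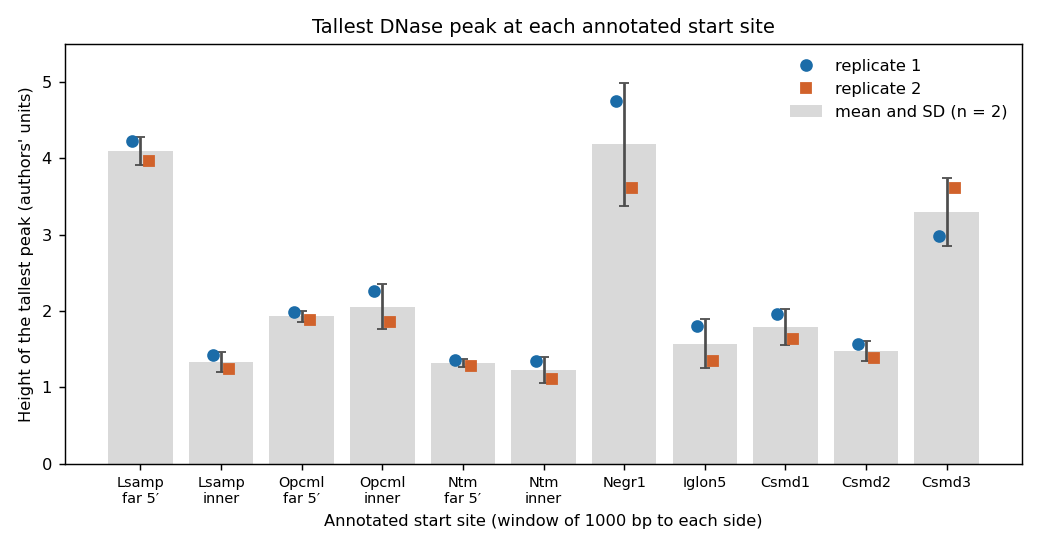
Height of the tallest DNase peak within 1000 bp of each of the 11 start sites (vertical axis, authors' units; bars are means with SD, points are the 2 replicates). Negr1, the far start of Lsamp and Csmd3 stand at 4.18, 4.10 and 3.30 on average, and the other 8 between 1.22 and 2.06.

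Outside promoters the 8 windows held 464 distal peaks in replicate 1 and 386 in replicate 2. Lsamp had 100 and 86 of them, Csmd1 89 and 78, Ntm 82 and 62, Opcml 76 and 59, Csmd2 45 and 40, Negr1 43 and 34, Csmd3 24 and 21 and Iglon5 5 and 6. In the 10 kb flanks lay 15 and 12 of the peaks, and the next 10 kb outward held 2 and 2 more that the windows left out. Each of the distal peaks held at least 1 base that the authors' file of false discovery rates listed for its own replicate. With the longer list standing for a rate of 0.05, this was given by construction and is no check of the peaks. The lowest rate inside a peak had a median of 0.000592 in replicate 1 and 0.000881 in replicate 2, and the weakest peaks stood at 0.0442 and 0.0438. Of the peaks, 12 and 2 overlapped another peak of their own replicate.

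Per 10 kb of window, Iglon5 had the highest density, 1.35 in replicate 1 and 1.61 in replicate 2 (1.48 ± 0.190, SD, n = 2). It spans only 17.2 kb, and 3 of 5 and 4 of 6 of its peaks lay in the flanks, which also hold the coding gene Vsig10l and part of 4931406B18Rik. Counted in the gene body alone its density was 1.16. Ntm followed with 0.830 and 0.627 (0.728 ± 0.143). Csmd2 had 0.750 and 0.667 (0.709 ± 0.0589) and Opcml 0.658 and 0.511 (0.585 ± 0.104). The range of Ntm overlapped those of both, whereas Opcml lay below Csmd2 in both replicates. Within each replicate Ntm was above Opcml, and Opcml above Csmd1 and Negr1, although the ranges overlapped. The order of Ntm and Csmd2 changed between the replicates.

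Csmd1 had 0.535 and 0.469 distal peaks per 10 kb (0.502 ± 0.0468). Negr1 had 0.555 and 0.439 (0.497 ± 0.0822) and Lsamp 0.451 and 0.388 (0.419 ± 0.0446). The ranges of Csmd1 and Negr1 overlapped, and their order changed between the replicates. Negr1 was above Lsamp within each replicate, although their ranges overlapped, and Lsamp lay below Csmd1. Csmd3 was the lowest, with 0.195 and 0.171 (0.183 ± 0.0172), below every other member in both replicates. Lsamp, first by number of peaks, was thus next to last by density.

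The median over the 8 was 0.543 per 10 kb (0.607 and 0.490 in the replicates), beside 0.405 over all coding genes. Of the 8, 7 have bodies of 500 kb or more, as do 230 coding genes, whose median was 0.396 (quartiles 0.254 and 0.561, range 0.0179 to 1.08). These 7 had a median of 0.502. Of them 6 lay above the median of the long genes and Csmd3 below it. On the authors' shorter, stricter peak list the median of the 8 was 0.264 and that of the long genes 0.191. By density Ntm ranked 28, Csmd2 32, Opcml 54, Csmd1 74, Negr1 76, Lsamp 107 and Csmd3 201 of the 230. By mean number of distal peaks Lsamp ranked 7 and Csmd1 12. The long genes nearest in density to the median of the 8, over the 2 replicates, were Ryr3 (0.553 ± 0.0817) and Sox5 (0.550 ± 0.00726) above it and Tenm2 (0.540 ± 0.198) and Fat3 (0.540 ± 0.0463) below. The densest long genes were Kalrn (1.08 ± 0.192), Slit3 (1.04 ± 0.233) and Nav2 (1.02 ± 0.147).

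Base composition moved with these densities. Across the 230 long genes Spearman's rho of density with the GC content of the gene body was 0.797 (Pearson's r 0.790) and with gene length -0.139. These are descriptions across genes, which share both libraries. In the 58 genes with the lowest GC content the median density was 0.206, and in the 58 with the highest 0.673. Csmd3 had the second lowest GC content of all 230, 35.2%, and Csmd2 was 228th in that order with 48.0%. The order by GC content from Csmd3 over Lsamp (37.8%), Negr1 (39.8%), Csmd1 (40.3%), Opcml (41.0%) and Ntm (42.7%) to Csmd2 was also the order of their densities, except that Ntm was above Csmd2. The part of base composition in these differences was not tested.

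**Figure D2:**
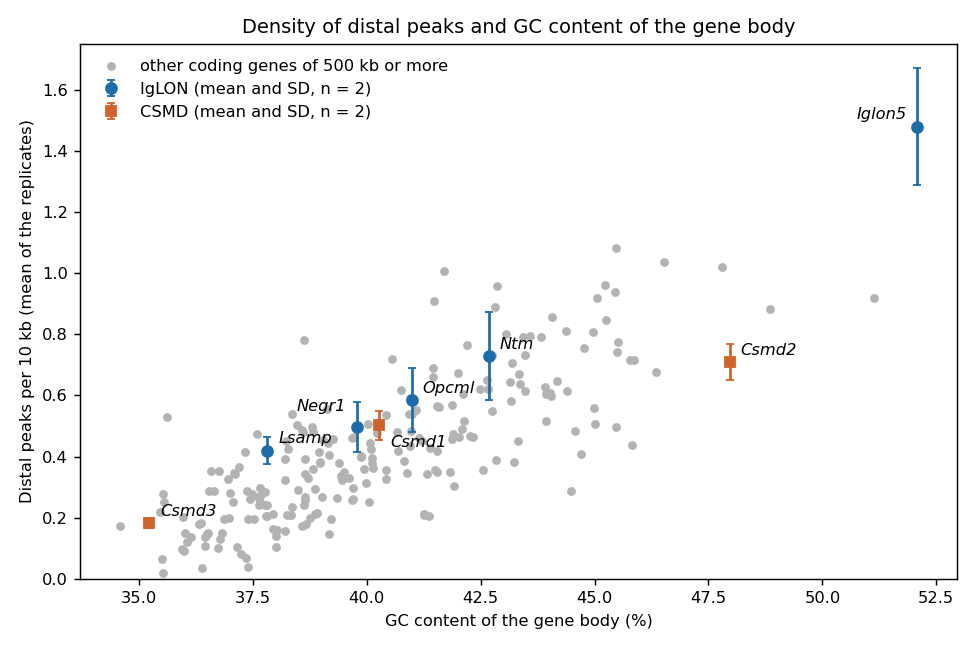
Distal peaks per 10 kb (vertical axis, mean of the replicates) against GC content of the gene body (horizontal axis, %), for the 8 members with SD (n = 2) and the other coding genes of 500 kb or more (grey). Csmd3 sits at 35.2% GC with 0.183 peaks per 10 kb, Csmd2 at 48.0% with 0.709, and Iglon5, which is not a long gene, at 52.1%.

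Along the genes the distal peaks were counted in windows of 10 kb. Of 854 windows of 10 kb tiling the 8 bodies from their starts, 504 held no distal peak in either replicate and 10 held 3 or more in both. The empty share was lowest in Ntm (42.3%) and Csmd2 (48.3%) and highest in Lsamp (64.5%) and Csmd3 (79.5%). A gene with few peaks has many empty windows however they are spread. No random placement was set beside these counts, so uneven spread was not tested. The longest stretch free of distal peaks of both replicates was in Lsamp, 165 kb long and beginning 79.0 kb from its 5′ end. Csmd3 had one of 135 kb and Negr1 one of 113 kb, and in the other long members the longest was between 57.3 and 78.8 kb. The densest 10 kb was in Csmd2, 460 kb from its 5′ end, with 4 peaks in each replicate. Csmd1 reached 3 and 4 peaks at 640 kb, Lsamp 4 and 3 at 240 kb, Csmd3 4 and 3 at 220 kb and Ntm 3 and 3 at 130 kb. The densest 10 kb of Opcml, at 430 kb, and of Negr1, at 690 kb, held 4 and 2.

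The first 25% of the bodies was counted from the 5′ end, in the 7 members of 500 kb or more. It held 25.3% of the distal peaks inside them in replicate 1 and 26.1% in replicate 2. In all the long genes it held 24.7% and 24.9%. Over these 7 members, then, this stretch held about its own share of the peaks, and single members differed from one another. Csmd3 had 45.8% and 52.4% of its peaks there, 11 of 24 and 11 of 21. Negr1 had 10.3% and 21.9%, and Ntm 32.9% and 27.4%. In the genes with an inner start, the stretch from the far to the inner start had 0.433 and 0.316 distal peaks per 10 kb in Lsamp, against 0.462 and 0.524 beyond the inner start. In Opcml the stretch between the starts had 0.685 and 0.587 against 0.633 and 0.441, and in Ntm 0.908 and 0.708 against 0.767 and 0.551. The stretch beyond the inner start was thus the richer in Lsamp and the poorer in Opcml and Ntm, in both replicates.

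**Figure D3:**
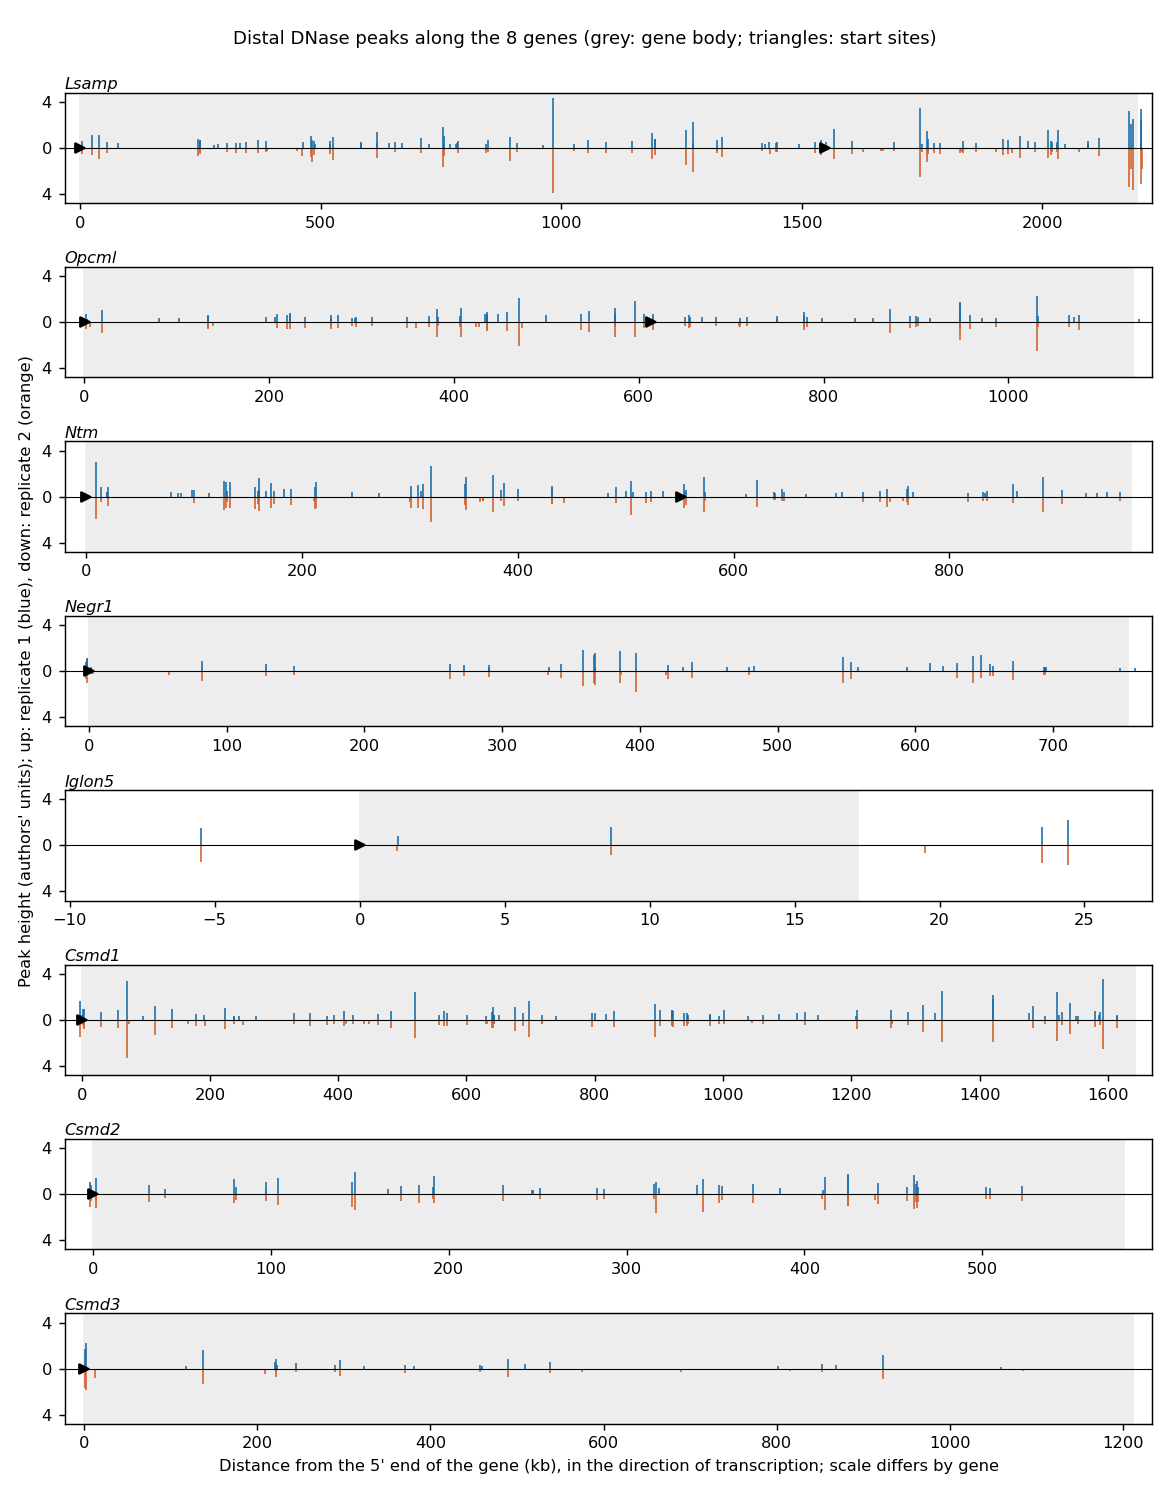
Height of every distal peak (vertical axis, authors' units; replicate 1 upward, replicate 2 downward) against distance from the 5′ end of the gene (horizontal axis, kb, scaled to each gene), with gene bodies in grey and start sites as triangles. Tall peaks gather at the 3′ end of Lsamp, and Csmd3 has 11 of its 24 and 11 of its 21 peaks in the first 25% of its body.

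Replicate 2 had a peak over 332 of the 464 distal peaks of replicate 1 (71.6%), beside 69.8% of all distal peaks. From the other side it was 326 of 386 (84.5%), beside 83.2%. The members' shares were within 2 percentage points of the background in each replicate. Of the long members Csmd2 had the highest share, 84.4% and 95%, and Csmd3 the lowest, 58.3% and 66.7%. Unshared peaks were low, with a median height of 0.377 in replicate 1 and 0.352 in replicate 2, against 0.696 and 0.601 for the shared ones. Of the 132 and 60 unshared peaks, 14 (10.6%) and 7 (11.7%) held a base that the other replicate's file listed at a false discovery rate of 0.05 or less. The same share over all unshared distal peaks is not given here, so these shares cannot be called high or low. The tallest unshared peak, in Opcml at chr9:28738501-28738640 with a height of 1.65 in replicate 1, directly abutted a peak of replicate 2. The tallest in replicate 2, in Csmd3 at chr15:48779561-48779720 with 0.801, had its nearest peak of replicate 1 10000 bp away.

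Peaks that were each other's best overlap gave 325 pairs, called shared sites here, 312 in introns, 11 in flanks and 2 touching an exon. Across all 101938 pairs of the series the median log2 ratio of replicate 2 to replicate 1 was -0.19, and ratios below are relative to it. For the 325 sites the median was -0.03, and for all 80562 distal pairs 0.03. Of the members' sites 3 (0.923%) differed by more than 2-fold, beside 0.704% of all distal pairs. They were a Csmd1 site (0.827 and 0.329), a Lsamp site (0.689 and 1.22) and a Negr1 site (1.36 and 0.594). By gene the median was lowest in Iglon5, -0.21 over 5 sites, and next in Lsamp, -0.11, with 43 of 72 sites lower in replicate 2. By 100 kb windows, the largest difference in peak number within Ntm was in its first 100 kb, with 9 against 3. Within Lsamp it was 700 kb in, with 9 against 4. In these windows, picked as the most unequal, 25% and 30.8% of the peaks of both replicates came from replicate 2. Over 660 windows of the long genes with 10 or more peaks that share had a median of 45.5%. Its 5th and 95th percentiles were 30% and 58.3%.

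**Figure D4:**
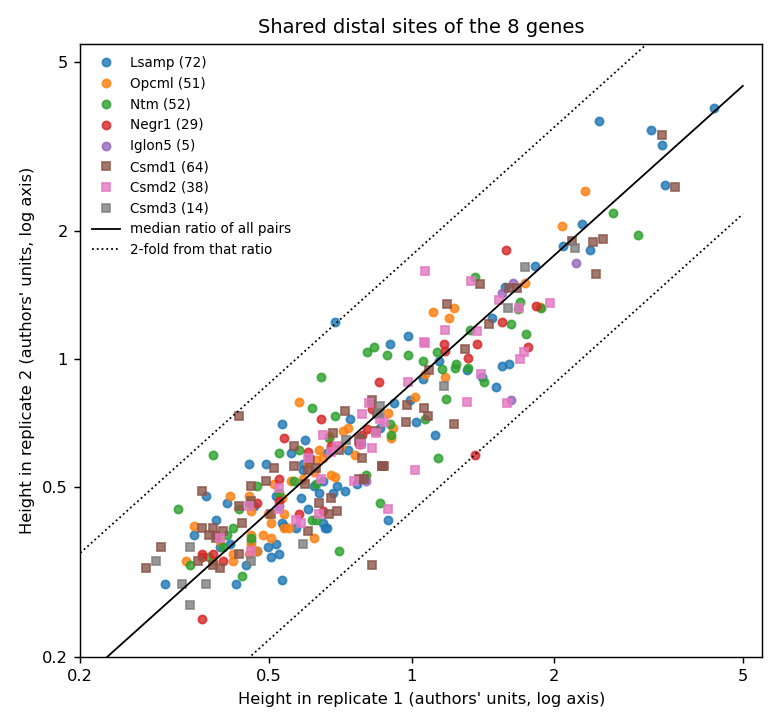
Heights of the 325 shared distal sites in replicate 1 (horizontal) and replicate 2 (vertical), both on log axes in the authors' units, by gene with the number of sites. The solid line is the median ratio of all pairs and the dotted lines 2-fold from it, which 3 sites pass.

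Most shared sites were low. The median of the mean height was 0.658 for the members and 0.717 for all distal pairs. A mean height of 2 or more was reached by 18 of the 325 (5.54%), beside 9.55% of all distal pairs. Lsamp had 7 of the 18, Csmd1 6, Ntm and Opcml 2 each and Csmd3 1. By gene the median height ran from 0.583 in Opcml and Csmd3 to 0.774 in Csmd2 and 0.781 in Ntm, with Iglon5 at 1.49 over 5 sites.

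The tallest site of all 8 genes was in Lsamp at chr16:40968181-40968380, with 4.34 in replicate 1 and 3.89 in replicate 2 (4.12 ± 0.324). It lies in intron 2 of the long transcript Lsamp-206, 984 kb from the far start, and its range overlaps that of the far promoter. Of all 80562 distal pairs 1.24% were taller. The printed sequence holds none of the 15 motifs searched.

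A cluster of tall sites stood at the 3′ end of Lsamp. The last 20 kb of the gene and the 10 kb after it held 6 shared sites, of which 5 had mean heights of 1.96 to 3.32. The highest by mean had 3.20 and 3.45 (3.32 ± 0.178) at chr16:42165021-42165240, in an intron 16.5 kb before the gene end, and held a CTCF match. Another, in an intron 8.98 kb before the end, had 2.49 and 3.64 (3.06 ± 0.812). The third had 3.37 and 3.18 (3.28 ± 0.139) in the flank, 8.65 kb past the end. The median Lsamp site had 0.592. The highest single values were those of the flank site in replicate 1 and of the site 8.98 kb before the end in replicate 2. These sites were singled out after their heights were seen.

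In Csmd1 the tallest site, at chr8:17465561-17465780 in intron 1 and 70.0 kb from the gene start, had 3.37 and 3.36 (3.37 ± 0.0111). A second, 50.1 kb before the 3′ end, had 3.59 and 2.53 (3.06 ± 0.749). The order of these sites thus differed between the replicates. The tallest site of Csmd2 by mean height, at chr4:128135101-128135340 in intron 3, had 1.96 and 1.36 (1.66 ± 0.424) and also lies inside the antisense gene Csmd2os. In replicate 2 the tallest Csmd2 site was chr4:128304121-128304340, with 1.61.

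Among the other IgLONs the tallest Ntm site by mean height, at chr9:29954081-29954380 in intron 1 and 8.89 kb from the far start, had 3.01 and 1.96 (2.48 ± 0.742). In replicate 2 another Ntm site was taller, at chr9:29643361-29643520 with 2.21. The first of these is in the 100 kb in which replicate 2 had fewer peaks. That of Opcml, at chr9:28822181-28822400, had 2.32 and 2.49 (2.40 ± 0.115), in intron 4 of Opcml-202 and also inside the antisense gene Gm48091. The tallest Negr1 site by mean height, at chr3:156958741-156959020 in intron 2, had 1.58 and 1.81 (1.69 ± 0.160). In replicate 1 another Negr1 site was taller, at chr3:156920741-156920920 with 1.83. The tallest at Iglon5 was in the flank 7.26 kb past its 3′ end, inside Vsig10l, with 2.22 and 1.69 (1.96 ± 0.382). No distal site of Negr1, Iglon5 or Csmd2 reached a mean height of 2.

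Of the members' distal peaks 371 of 464 (79.96%) in replicate 1 and 312 of 386 (80.8%) in replicate 2 held at least 1 whole footprint, beside 77.5% and 80.5% of all distal peaks. Footprints per distal peak were 1.85 and 1.92, beside 1.89 and 2.04. Csmd2 had the most of the long members, 2.24 and 2.18, and Csmd3 (1.42 and 1.71) and Negr1 (1.60 and 1.56) the fewest. The shared site with the most was in Csmd1 at chr8:17532181-17533060, 2.81 kb from the gene start, with 6 and 12 in a peak of modest height (0.978 and 0.781). In shared distal peaks 330 of 710 footprints of replicate 1 (46.5%) overlapped a footprint of replicate 2, beside 53.1% of all. For replicate 2 it was 339 of 690 (49.1%), beside 53.2%. The members' shares lay below those of all distal sites from both sides, a description with no test. The part of peak height in this was not tested.

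Motifs were searched as exact letters on both strands in 200 bp at the centre of the replicate 1 peak, in the 325 member sites and all 80562 shared distal sites. At least 1 of the 15 motifs was present in 79.4% of member sites and 75.8% of all. The E-box CATCTG, a neuronal bHLH site, was in 110 member sites (33.8% against 31.2%) and the E-box CAGCTG in 76 (23.4% against 21.5%). The NFI motif TTGGCA was in 89 (27.4% against 21.7%), the homeobox core TAATTA in 25 (7.69% against 4.54%) and the RFX motif GTTGCCA in 27 (8.31% against 5.38%). The SP/KLF motif GGGCGG was in 17 (5.23% against 7.87%), and the ETS site CCGGAAG and the CRE TGACGTCA in 0 (1.36% and 0.400% of all). The median GC content of the member sites was 48%, against 50% for all. CCGGAAG appeared in 1 member site when windows were centred on replicate 2. The EGR motif GCGTGGGCG was in 2 member sites (0.615% against 0.176%). In 100 bp windows the shares of CATCTG were 20.9% and 21.3%, with the members the lower.

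The CTCF motif was in 13 member sites (4% against 6.34%). Ntm had 4 of them, Lsamp and Opcml 3 each, Negr1, Iglon5 and Csmd2 1 each, and Csmd1 and Csmd3 0 among their 64 and 14 sites. Their median mean height was 1.19, against 0.658 for all member sites, and 2 of them were among the 10 tallest. Besides the Lsamp site near the 3′ end, the tallest were chr9:29643361-29643520 in Ntm, with 2.66 and 2.21 (2.44 ± 0.323), and chr9:28261521-28261680 in Opcml, with 2.07 and 2.06 (2.07 ± 0.00996). A match of letters is no measure of binding.

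Related genes were taken from lists made for this description. Of 27 other neural adhesion genes of the immunoglobulin superfamily, 26 had an open promoter (a peak in both replicates) and Cntn3, a contactin, had no peak. Their median density was 0.748 distal peaks per 10 kb. The highest were the contactin gene Cntn2 (20 and 4 peaks, 2.23 ± 2.10), Cadm4, a SynCAM adhesion gene (2.00 ± 0.499), and Igsf21 (1.90 ± 0.0884), and the lowest Cntn6 (0.102 in both replicates) and Mdga2 (0.180 ± 0.0182). The value of Cntn2 rests on replicate 1. Members of this list with bodies of 500 kb or more numbered 9. Their densities ran from 0.180 in Mdga2 to 0.937 in Kirrel3, with Robo2 (0.352) in the middle. The 7 long IgLON and CSMD genes had a median of 0.502. The median of 0.748 mixes short and long genes, so it is no like-for-like measure for them.

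Of 8 genes with CUB or sushi domains outside the CSMD family, all 8 promoters were open, and their median density was 1.17. The highest were the semaphorin receptor gene Nrp2 (1.70 ± 0.418), Susd4, a complement inhibitor gene (1.28 ± 0.231), and Sez6l2 (1.25 ± 0.353), and the lowest the glutamate receptor auxiliary genes Neto2 (0.415 ± 0.0838) and Neto1 (0.607 in both replicates). None of them is 500 kb long. Of 20 complement genes 10 had an open promoter, 3 had a peak only in replicate 1 and 7 had none, among them C1qa and C3. Their median density was 0.219. Cfd had the highest value, 11 and 3 peaks around a gene of 1.803 kb, followed by C1s1 (0.937 in both replicates) and Cd46 (12 and 1 peaks), and 6 genes had 0 distal peaks, among them C1qa and Cd55.

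The tissue label was checked with marker promoters. Peaks in both replicates were present at 10 of 10 excitatory neuron genes, 6 of 8 oligodendrocyte, 6 of 7 astrocyte, 3 of 9 inhibitory neuron, 1 of 6 microglial and 1 of 6 endothelial genes, and at 0 of 10 genes of other organs and brain regions. Without a promoter peak in either replicate were Gfap, Dlx1, Dlx2, Sst, Tmem119, Pecam1 and Cdh5, which are defining genes of astrocytes, inhibitory neurons, microglia and endothelium. The members' peaks were not assigned to cell types.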

How the data were processed

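DNase-seq of the hippocampus was available as 2 replicates of 1 group. For each replicate the authors deposited peaks with a height (unit: signal, scale not stated), intervals with a false discovery rate (a q-value), and footprints with a constant of 0.01 and no ranking, all called per sample. The build was mm10, per the labels. Aligner and callers were not given in the sources used here. Read depth is unknown. Heights under 200 steps were whole multiples of 0.00656 and 0.00646, within 0.1 step, and the median member peak equalled 88 and 83 steps. What a step stands for is not stated.

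The members and lists were chosen with earlier results of these data known. The longer peak list was used. Gene models were GENCODE M21 (basic), with sequence from GRCm38.p6. A peak was shared when at least 1 bp overlapped, and a footprint counted when wholly inside a peak. Heights were compared between mutually best overlapping peaks. The text names all 8 members, per member the tallest shared site and the densest 10 kb, the 100 kb windows most unequal between replicates, the 3 highest and 2 lowest genes of each related list by density, and the long genes highest in or nearest to the members' density. With 1 group there was no test and no p-value. Python 3.11.15, numpy 2.4.6, pandas 2.3.3 and matplotlib 3.10.9 were used, and the counting functions were tested on simulated data. The alternatives covered the peak list, equal peak numbers, start sites, windows, flank, overlap, footprint rule, length class, motif window and leaving out each replicate. Merging overlapping peaks was added after the data were seen. Some sites and genes that this rule takes are left out of the text.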

Additional observations from a re-analysis of the deposited data

How the results depend on the processing

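On the shorter, stricter peak list the members' median density was 0.264 distal peaks per 10 kb in place of 0.543. On that list the first 25% of the 7 long bodies held 28.3% of their peaks in place of 25.7%. A peak there held 2.34 footprints in place of 1.89. With equal numbers of peaks in both replicates it held 1.93. With start site windows of 2500 bp that stretch held 24.3%. Requiring 50% overlap of each peak left a mean of 63.9% shared in place of 78.0%. At least 1 motif was in 57.8% of sites in 100 bp windows and 77.2% in whole peaks, in place of 79.4%. Over the 7 results followed, 32 other values counted as unmoved. For most the limit was the SD of the 2 replicates. For the height ratio it was the SD over the 8 genes, and for open promoters a fixed fold. The 32 include values from 1 replicate alone. A mean of 2 replicates lies within that SD of each by arithmetic, so those values are no check. Leaving out a replicate gave a median density of 0.490 to 0.607. Merging overlapping peaks, added after the data were seen, gave 0.535. The median of the 8, Iglon5 included, lay above that of the long genes in each setting run. The settings recount the same 2 replicates for genes chosen with peak counts known, so this is no independent check. Beside the class of 1000 kb or more the 8 still included shorter genes, which is not like for like. The order of the members by density changed with the shorter list, where Csmd2 passed Ntm and Negr1 passed Csmd1 and Opcml, which came after Csmd1. It also changed between the replicates: Negr1 (0.555) was above Csmd1 (0.535) in replicate 1, and Csmd2 (0.667) above Ntm (0.627) in replicate 2. With 1 group no conditions could be paired, and genes could be compared only within each replicate. With 2 pools an SD rests on 1 difference, and with unknown read depth no absence of a peak shows closed chromatin.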
